A study of Arabidopsis thaliana with 10 samples.

Results

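Pseudogenes are damaged or truncated copies of genes that no longer code for a working protein, and the small RNAs assigned to them in Arabidopsis thaliana pollen are described here. All loci that the small RNA tables call pseudogene were taken, which gave 921 of the 33271 loci listed in any of the 10 libraries. Between 441 and 879 of them were listed in a single library. They were between 92 and 58519 bp long, with a median of 771.5 bp, and 811 of them had a protein relative elsewhere in the genome.

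Mature pollen, which consists of a vegetative cell with sperm cells inside it, was profiled in 5 groups of 2 libraries each, all of Col-0 background. Unsorted pollen came from WT Col-0 and from plants with a pLAT52::RTL1-Myc or a pMGH3::RTL1-Myc transgene, and the methods describe 2 independent homozygous lines for each construct. RTL1 is an RNase III-like protein that suppresses siRNA biogenesis by cutting double-stranded RNA. The LAT52 promoter acts from the late microspore on and then mainly in the vegetative cell, and the MGH3 promoter acts in the male germline. Sorted pollen came from plants heterozygous for both the nrpd1a-3 T-DNA allele and the fluorescence-tagged line FTL1230, a pLAT52::DsRed insertion linked to NRPD1a. DsRed positive grains (WT FTL) and DsRed negative grains (nrpd1a-3 FTL) therefore shared a parent that still had Pol IV in its own tissues. No plant age is given in the labels, and sorted and unsorted pollen were handled apart, so WT FTL and WT Col-0 values are only set side by side.

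In plants, RNA polymerase IV (Pol IV), whose largest subunit is NRPD1a, makes short transcripts that are turned into double-stranded RNA and cut to 24-nt siRNAs, which guide DNA methylation at transposons and repeats. Other siRNAs, of 21 and 22 nt, come from double-stranded RNA that forms when transcripts fold back on themselves, pair with an antisense copy or are copied after cleavage. A pseudogene can feed either route, and its siRNAs can match the intact relative wherever both sequences are still the same.

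Signal is given as the RPM values of the authors, that is reads scaled to a total of the library, in which each perfectly matching read is divided by its number of genomic positions. 1 read was worth 0.430 to 1.46 in the 10 libraries, which corresponds to a scaling total of 684589 to 2324263 reads. In whole pollen, fewer cells of a type and less RNA per cell cannot be told apart. The same scale applies to every length and every locus of a library, so that lengths can be added. Signal is not divided by length, so levels of different loci are set against each other only where a value per kb is given. RTL1 signal was 4.302 and 11.9 in WT Col-0, 93.7 and 23.8 in pLAT52::RTL1, and 1023 and 302 in pMGH3::RTL1. NRPD1a signal ranged from 3.62 to 20.6, and its small RNAs carry no information on the T-DNA allele. The pollen microRNA locus MIR845a gave 382206 to 859267 in unsorted pollen, 429793 in WT FTL replicate 1 and 252148 in nrpd1a-3 FTL replicate 1, but 79042 and 56465 in replicate 2 of these groups, the lowest values of all libraries. Replicate libraries correlated with r of 0.932 to 0.958 over 261 pseudogenes (log2 scale, across loci, which are not independent) in the unsorted groups, and with r of 0.882 (WT FTL) and 0.855 (nrpd1a-3 FTL) in the sorted ones. No source says that the 2 sorted libraries of a group came from separate plants, so p-values there measure the spread between these libraries only.

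Different kinds of pseudogene were separated by sequence, because they carried very unequal amounts of signal. Of the 920 members found in the RefSeq annotation of TAIR10.1 (AT3G07274 was not), 29 shared at least 50% of their 24-mers with an organelle genome: 28 with the mitochondrion and 1, AT5G31909, with the plastid. 27 of the 29 lay between positions 3244585 and 3507323 of chromosome 2, the large nuclear insertion of mitochondrial DNA next to the centromere. These organelle-like pseudogenes carried 94.4% of the mean pseudogene signal, and AT2G07731, a copy of the mitochondrial gene nad6 for a subunit of respiratory complex I, carried 84.8% alone and ranked 5 among all listed loci by signal not divided by length. The tables list 0 loci of the organelle genomes themselves, and whether a read was also divided over its organelle positions is not given in the sources used here. Reads of the organelle genomes and of their nuclear copies therefore cannot be told apart in these values. The other 892 pseudogenes had a summed mean signal of 24789.8, of which the 10 highest held 42.3%.

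Mitochondrial transcripts leave short protected footprints where proteins bind their ends, and RefSeq annotates 254 such clustered organellar small RNAs (cosRNAs) on the mitochondrial genome. 15 of the 29 organelle-like pseudogenes held at least 1 whole cosRNA sequence and 0 of the 892 others did. The windows below come from the pseudogenes with the highest signal and are read from the TAIR10.1 genome of RefSeq, 5′ to 3′ on the named strand. Capitals mark the bases that are also an annotated cosRNA. They are shown because reads from such a footprint in the mitochondrion cannot be told apart from reads of the nuclear copy.
AT2G07731 at cosRNA M30: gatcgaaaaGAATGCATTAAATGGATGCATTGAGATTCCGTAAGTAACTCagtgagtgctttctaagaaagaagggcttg
AT2G07731 at cosRNA M93: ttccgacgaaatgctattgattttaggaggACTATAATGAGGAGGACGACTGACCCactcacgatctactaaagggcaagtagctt
AT2G07716 at cosRNA M216: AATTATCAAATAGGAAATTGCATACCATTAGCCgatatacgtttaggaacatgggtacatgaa
AT2G07811 at cosRNA M128: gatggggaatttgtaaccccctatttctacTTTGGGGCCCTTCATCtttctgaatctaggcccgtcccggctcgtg
AT2G07723 at cosRNA M158: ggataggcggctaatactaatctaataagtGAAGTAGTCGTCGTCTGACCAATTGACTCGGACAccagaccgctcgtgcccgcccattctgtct
The windows of AT2G07731 lie at chr2:3467992-3468071 and chr2:3467252-3467337 on the minus strand. The others lie at chr2:3413955-3414017 on the plus strand (AT2G07716), chr2:3336974-3337049 on the minus strand (AT2G07811) and chr2:3442745-3442838 on the plus strand (AT2G07723, itself annotated on the minus strand). All 254 cosRNAs were searched in every member, and AT2G07716 holds 33 of the 42 bases of M216 at its first position.

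The next stretches show how close pseudogenes of the nuclear group remain to the gene they resemble. Capitals mark the bases at which the printed 90 bases differ between the pair.
AT3G30415: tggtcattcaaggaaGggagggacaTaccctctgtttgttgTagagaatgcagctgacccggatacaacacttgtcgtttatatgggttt
AT5G40850 (UPM1): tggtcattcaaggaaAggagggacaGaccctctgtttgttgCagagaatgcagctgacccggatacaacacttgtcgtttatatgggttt
AT1G62860: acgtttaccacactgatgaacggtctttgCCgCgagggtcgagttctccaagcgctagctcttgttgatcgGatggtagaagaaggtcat
AT1G63230: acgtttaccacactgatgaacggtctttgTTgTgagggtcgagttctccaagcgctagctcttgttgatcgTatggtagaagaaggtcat
AT3G33002: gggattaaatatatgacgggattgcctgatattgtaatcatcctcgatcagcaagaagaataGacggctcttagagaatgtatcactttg
rps2 of the plastid: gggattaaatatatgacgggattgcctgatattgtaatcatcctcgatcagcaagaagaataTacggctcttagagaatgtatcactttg
AT3G30415 (chr3:12040380-12040469, plus strand) differed from UPM1 (chr5:16368289-16368378, plus strand), a uroporphyrinogen methyltransferase gene, at 3 of these bases and was 90.6% identical over 854 bp. AT1G62860 (chr1:23276355-23276444, minus strand) differed from AT1G63230 (chr1:23451177-23451266, plus strand), a gene for a repeat protein of the pentatricopeptide kind, at 4 bases and was 83.2% identical over 961 bp. AT3G33002 (chr3:13538226-13538315, minus strand) differed from the plastid gene rps2 for a ribosomal protein (plastid positions 15175 to 15264, minus strand) at 1 base and was 96.3% identical over 710 bp. A read that crosses a base in capitals can match 1 member of the pair only. A read from a stretch in lower case matches both, and in the nuclear pairs it is shared out over both. Whether a read that matches rps2 was also divided over the plastid is not given in the sources used here.

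AT4G21370, the broken S-locus receptor kinase gene PSEUDOSRKA of the lost self-incompatibility system, contains its own complement. The locus lies on the minus strand, and its last 499 bp (chr4:11383433-11383931) recur as a reverse complement with 100% identity (chr4:11384049-11384547). The arms are 117 bp apart, so that a transcript through both can fold into a perfect hairpin. 90 bases next to the loop, read on the minus strand of the first arm and on the plus strand of the other, were identical throughout and therefore have no capitals.
AT4G21370: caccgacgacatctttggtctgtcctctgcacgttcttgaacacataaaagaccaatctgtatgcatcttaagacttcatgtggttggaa
AT4G21370 other arm: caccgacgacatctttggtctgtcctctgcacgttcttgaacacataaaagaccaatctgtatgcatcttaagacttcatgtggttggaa
8 of the 892 other pseudogenes had an inverted repeat of 100 bp or more. Mature microRNA sequences also occur inside annotated pseudogenes, and the one of AT3G30110 (chosen after its values were seen) is printed with its seed, bases 2 to 8, in capitals.
microRNA ath-miR8183 in AT3G30110: tTTAGTTGacggaattgtggc
It lies at chr3:11747799-11747819 on the minus strand, the strand of AT3G30110.

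AT2G07731 was the largest single source of pseudogene signal in all 10 libraries. Its signal was 138664 and 286992 in WT Col-0, 524736 and 257220 in pLAT52::RTL1, 449508 and 407333 in pMGH3::RTL1, 357963 and 409886 in WT FTL, and 492628 and 435819 in nrpd1a-3 FTL. WT Col-0 replicate 1 was the lowest of all, and pLAT52::RTL1 overlapped WT Col-0. No comparison passed the test, which was limma with Benjamini-Hochberg adjustment over all loci. Against WT Col-0 the log2 difference was 0.88 (SE 1.00, adjusted p = 0.669, limma) in pLAT52::RTL1 and 1.10 (SE 1.00, adjusted p = 0.557) in pMGH3::RTL1. Against WT FTL it was 0.27 (SE 1.55, adjusted p = 0.93, limma) in nrpd1a-3 FTL. Its signal was spread over lengths, with 23.2% at 21 and 22 nt and 32.7% at 23 and 24 nt over the 10 libraries. 62.7% of its 126 listed values were whole numbers of reads within 0.001 read and 98.4% were whole or in steps of 0.5 read, which is what reads with 1 or 2 genomic positions give.

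**Figure D1:**
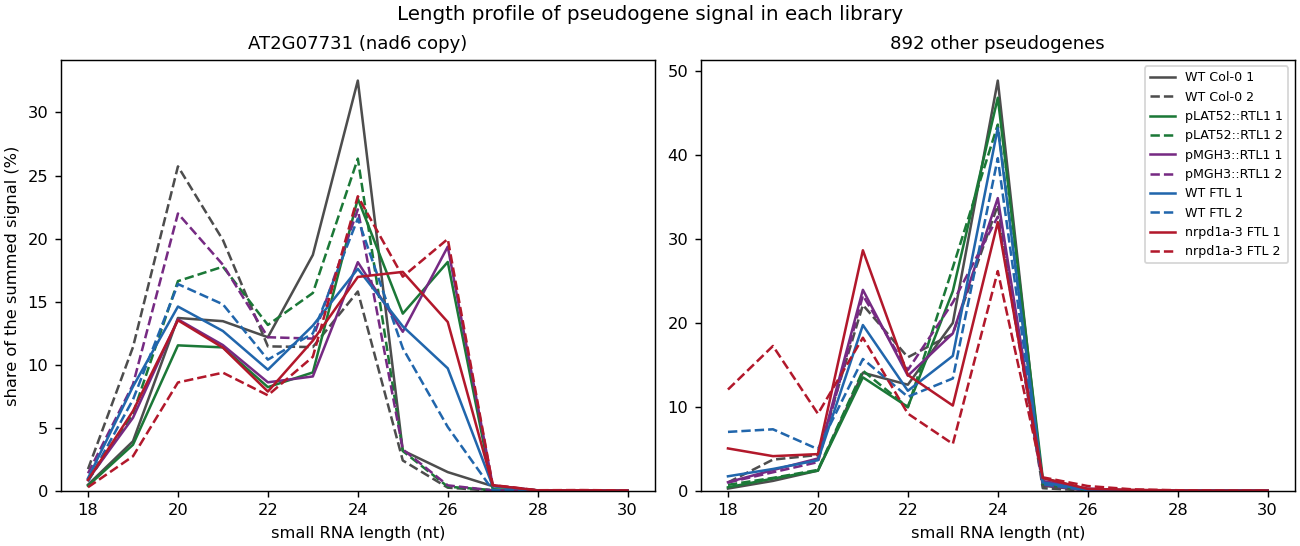
Share of the signal (y axis, %) at each small RNA length (x axis, nt) for AT2G07731 (left) and for the 892 pseudogenes that are not organelle-like (right), with solid lines for replicate 1 and dashed lines for replicate 2 of each group. AT2G07731 had a broad profile that reached 26 nt in replicate 1 of both RTL1 groups and in sorted pollen, while the other pseudogenes peaked at 24 nt in every library, and nrpd1a-3 FTL replicate 2 also had 17.2% at 19 nt.

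The libraries differed in the long end of this profile, and they did so within groups. Lengths of 25 to 30 nt made up 32.3% of AT2G07731 in pLAT52::RTL1 replicate 1 and 32.4% in pMGH3::RTL1 replicate 1, but 3.53% and 3.74% in the second replicates. They made up 5.05% and 2.65% in WT Col-0, 23.2% and 16.4% in WT FTL, and 31.2% and 37.5% in nrpd1a-3 FTL. The plot of length profiles shows this as a shoulder at 25 and 26 nt. The part of this difference between replicates in the totals of organelle-like pseudogenes was not tested.

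The other copies of mitochondrial genes had profiles of their own. AT2G07716, a copy of mttB for a membrane transport protein, had its highest share at 26 nt (32.1%). Its signal was 7751 and 5799 in WT Col-0, 47466 and 20742 in pLAT52::RTL1, 39901 and 18683 in pMGH3::RTL1, 16040.3 and 2237 in WT FTL, and 8564 and 2822 in nrpd1a-3 FTL. It was higher in all 4 RTL1 libraries than in WT Col-0, with log2 difference 2.23, SE 0.57, adjusted p = 0.107 in pLAT52::RTL1 by limma over all loci. At 23 and 24 nt alone this pseudogene passed the test in both RTL1 groups (log2 difference 1.78, SE 0.26, adjusted p = 0.00142 in pLAT52::RTL1 and log2 difference 1.39, SE 0.26, adjusted p = 0.00683 in pMGH3::RTL1, limma).

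AT2G07811, which resembles part of the complex I gene nad2, was 71.5% 23 and 24 nt and had 25626 signal per kb, the second highest per kb of the named members after 430292 in AT2G07731. AT2G07808 lies within the same stretch on the opposite strand, was chosen after its values were seen, and had 66.2 signal per kb. AT2G07717 (copy of nad4) was 49.1% 21 and 22 nt, AT2G07723 (copy of ccmFC, a cytochrome c assembly factor) had 43.9% of its signal at 20 nt, and AT2G07711 (copy of nad5) had 16.5% at its most frequent length of 22 nt. AT2G07709 (copy of nad7), chosen after its values were seen, held 6 cosRNA sequences, more than any other member. Among the organelle-like pseudogenes with low signal, by contrast, 24 nt was the most frequent length wherever the mean signal was below 100, except in the plastid-like AT5G31909 (21 nt).

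Summed over the 29, the organelle-like signal was 171241 and 311734 in WT Col-0, 603593 and 305416 in pLAT52::RTL1, 523778 and 456087 in pMGH3::RTL1, 390329 and 431154 in WT FTL, and 527935 and 466120 in nrpd1a-3 FTL. Both nrpd1a-3 FTL libraries were above the WT FTL libraries. Both pMGH3::RTL1 libraries were above both WT Col-0 libraries, and pLAT52::RTL1 and WT Col-0 overlapped. Of the 21 organelle-like pseudogenes that could be tested in sorted pollen, 1 was lower in nrpd1a-3 FTL, AT2G07808 (log2 difference -2.69, SE 0.63, adjusted p = 0.0442, limma). It is on the strand opposite to AT2G07811 and its values were 33.4 and 45.8 in WT FTL and 4.03 and 6.70 in nrpd1a-3 FTL.

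**Figure D2:**
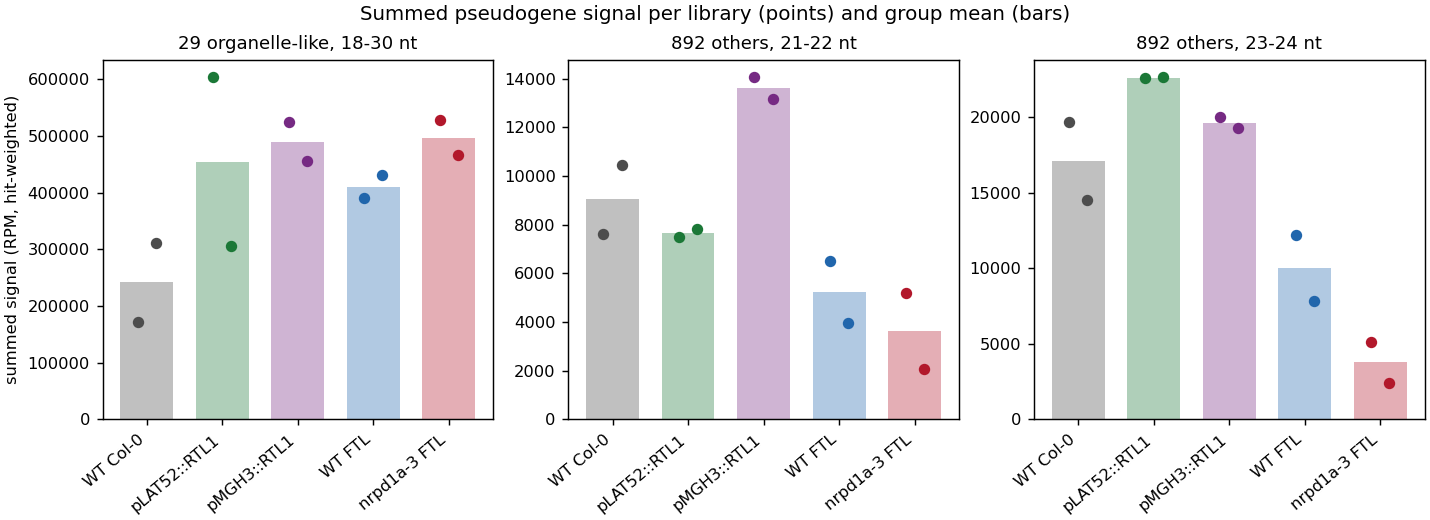
Summed signal (y axis, hit-weighted RPM) of the 29 organelle-like pseudogenes at 18 to 30 nt (left) and of the 892 others at 21 and 22 nt (middle) and at 23 and 24 nt (right), with 1 point per library and a bar for the mean of the 2 libraries of a group. The 23 and 24 nt sum of the others was 5146 and 2413 in nrpd1a-3 FTL, below all other libraries, and their 21 and 22 nt sum was 14061 and 13165 in pMGH3::RTL1, above all other libraries on the scale of the authors, while scaling to microRNA genes made pMGH3::RTL1 and WT Col-0 overlap.

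The 892 other pseudogenes formed a long tail of mostly weak loci. Averaged over the libraries, 262 of them reached 12 reads (weighted by genomic positions), and the median signal over all 892 was 2.78. Of the 262, 232 had more 23 and 24 nt than 21 and 22 nt signal and 30 had the reverse. Those of the pericentromere, defined as the region in which transposable element genes outnumber protein-coding genes per Mb, were denser in signal. 98 of 194 (50.5%) reached 12 reads there, against 164 of 697 (23.5%) on the arms. The median signal was 13.8 per kb there and 2.29 per kb on the arms. Pericentromeric members were 74.2% 23 and 24 nt in sum and arm members 49.7%. 112 members shared a 24-mer with a transposable element gene, and 76 of these (67.9%) reached 12 reads, against 186 of the 779 without (23.9%).

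The 892 came from many gene families. Members related to F-box genes (79 members, median signal 2.77), to self-incompatibility or cysteine-rich peptide genes (96 members, 2.10) and to protein kinases (39 members, 2.92) had medians close to 2.78. The 34 members related to transposon genes had a median of 9.31. Summed over the family, 21 and 22 nt led in pentatricopeptide repeat pseudogenes (72.7%), where AT1G62860 held most of the signal. They also led in protein kinase pseudogenes (52.7%) and in the self-incompatibility group (50.7%), to which AT4G21370 belongs. F-box pseudogenes were 67.7% 23 and 24 nt. These are descriptions with no test, since members of a family share sequence.

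In the 21 and 22 nt class the sum of the 892 was 7631 and 10469 in WT Col-0, 7513 and 7819 in pLAT52::RTL1, 14061 and 13165 in pMGH3::RTL1, 6512 and 3969 in WT FTL, and 5181 and 2085 in nrpd1a-3 FTL. In the 23 and 24 nt class it was 19690.3 and 14511 in WT Col-0, 22579.7 and 22654 in pLAT52::RTL1, 20024 and 19265 in pMGH3::RTL1, 12200.2 and 7823 in WT FTL, and 5146 and 2413 in nrpd1a-3 FTL. Thus the 21 and 22 nt sum was higher in both pMGH3::RTL1 libraries than in WT Col-0 and pLAT52::RTL1, and the 23 and 24 nt sum was lower in both nrpd1a-3 FTL libraries than in WT FTL. The gap to pLAT52::RTL1 was present under all 3 other scalings. The gap to WT Col-0 was present with the median ratio, at 9373 and 8957 in pMGH3::RTL1 against 5428 and 6971 in WT Col-0. It was absent when scaled to microRNA genes or to the signal without structural RNAs. Scaled to microRNA genes, the 21 and 22 nt sum was 7295 and 6027 in pMGH3::RTL1 against 7171 and 7831 in WT Col-0. In pLAT52::RTL1 it was 5530 and 4663. Scaled to the signal without structural RNAs, it was 9059 and 7737 in pMGH3::RTL1 against 8609 and 7933 in WT Col-0, with 6296 and 5507 in pLAT52::RTL1. Under both of these scalings pLAT52::RTL1 lay below WT Col-0 without overlap. On the scale of the authors and with the median ratio, pLAT52::RTL1 and WT Col-0 overlapped. The 23 and 24 nt sums of the sorted groups overlapped when scaled by the median ratio, at 10528 and 9819.98 in nrpd1a-3 FTL against 11008 and 10459 in WT FTL. With 2 libraries against 2, an exact test cannot reach 0.05 and none was run on the sums. WT FTL replicate 2 and nrpd1a-3 FTL replicate 2 also had more very short signal. Lengths of 18 to 20 nt made up 19.3% and 38.5% of the sum, against 7.94% and 13.5% in the first replicates and 3.82% to 8.95% in unsorted pollen. AT3G06433, AT3G06437 and AT5G14840, which share the relative AT4G20953 and were chosen after their values were seen, held 73.5% and 90.4% of this short signal in those libraries and 7.73% to 12.8% of it in unsorted pollen.

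Few pseudogenes passed the test with RTL1 expressed from the LAT52 promoter. 334 pseudogenes passed the filter of 12 reads in the unsorted libraries, 309 of them not organelle-like. Of these, 1 was lower than in WT Col-0, beside 0.155% of all 11585 loci tested, and 1 was higher, beside 1.63% (limma, adjusted p below 0.05). The median log2 difference was 0.08 over the 334 pseudogenes and 0.17 over all loci. Scaling the libraries to the signal without structural RNAs gave 6 lower and 3 higher, and scaling to microRNA genes 9 lower and 3 higher. These scalings moved the median of all loci from 0.17 to -0.09 and -0.15, and their pseudogene counts have no count over all loci beside them. The count ranged from 0 without either pLAT52::RTL1 library or either pMGH3::RTL1 library to 5 without WT Col-0 replicate 2 and 7 without WT Col-0 replicate 1.

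The pseudogene that fell was AT3G33002, the copy of plastid rps2 shown above, which was 67.1% 21 and 22 nt. Its signal was 60.7 and 101 in WT Col-0, 24.7 and 20.98 in pLAT52::RTL1, 80.6 and 96.4 in pMGH3::RTL1, 62.1 and 18.1 in WT FTL, and 75.5 and 34.9 in nrpd1a-3 FTL. The pLAT52::RTL1 libraries were below all others except WT FTL replicate 2, and the difference to WT Col-0 passed the test (log2 difference -1.74, SE 0.30, adjusted p = 0.0288, limma). It passed under 11 of 18 alternative settings. AT3G33002 is part of a row of plastid-like pseudogenes on chromosome 3 in the order of the plastid genome: AT3G32990 with a piece of atpH, AT3G33000 (atpI), AT3G33002 (rps2) and AT3G33004 (rpoC2). The genes encode parts of the plastid ATP synthase, a ribosomal protein and a subunit of the plastid RNA polymerase.

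AT3G33000 and AT3G33004 had the same order of groups. The signal was 77.01 and 85.6 in WT Col-0, 45.9 and 32.4 in pLAT52::RTL1, and 164 and 168 in pMGH3::RTL1 for AT3G33000. The values of AT3G33004 were 134 and 139.8 in WT Col-0, 72.6 and 73.9 in pLAT52::RTL1, and 186 and 247 in pMGH3::RTL1. So had AT2G07600, a copy of plastid ndhF on chromosome 2, with 67.8 and 72.6 in WT Col-0, 34.5 and 24.8 in pLAT52::RTL1, and 106 and 108 in pMGH3::RTL1. In each of these pseudogenes, both pLAT52::RTL1 libraries were lowest and both pMGH3::RTL1 libraries highest of the unsorted ones, but none of them passed the test against WT Col-0 at 18 to 30 nt. At 21 and 22 nt alone, 8 of 151 pseudogenes tested were lower in pLAT52::RTL1, beside 2.27% of all loci, and 1 (AT2G07716) was higher, beside 2.4%. AT3G33002 (log2 difference -2.11, SE 0.41, adjusted p = 0.00376), AT3G33004 (log2 difference -1.68, SE 0.43, adjusted p = 0.0297) and AT2G07600 (log2 difference -1.47, SE 0.41, adjusted p = 0.0425) were among the lower ones by limma. The others were AT5G31909, another rpoC2 piece, and AT2G04110, AT5G33310, AT1G36595 and AT4G06597, chosen after their values were seen. Without any threshold, both pLAT52::RTL1 libraries were below both WT Col-0 libraries at 66 of the 151 (43.7%), beside 40% of all loci. They were above both at 23 (15.2%), beside 16.5% of all loci. The median log2 difference at this length was -0.30 at pseudogenes and -0.26 at all loci. 16 pseudogenes outside the organelle-like set had a plastid protein relative, and the 9 with 12 reads had a median log2 difference of -0.36 in pLAT52::RTL1 and 0.60 in pMGH3::RTL1 against WT Col-0. Reads of the plastid genome cannot be told apart from theirs where the sequences are the same.

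The pseudogene that rose in pLAT52::RTL1 was AT3G32990, at the start of the same row, and its small RNAs were of another kind, with 90.6% at 23 nt. Its signal was 1034 and 953 in WT Col-0, 3372 and 3890.0 in pLAT52::RTL1, 2949.5 and 4304 in pMGH3::RTL1, 529 and 80.2 in WT FTL, and 323 and 74.3 in nrpd1a-3 FTL. All 4 RTL1 libraries were above both WT Col-0 libraries, and the sorted libraries were below them. It passed the test in both RTL1 lines by limma (log2 difference 1.87, SE 0.29, adjusted p = 0.0227 in pLAT52::RTL1 and log2 difference 1.84, SE 0.29, adjusted p = 0.0259 in pMGH3::RTL1), under 11 and 10 of 18 alternatives. These comparisons share the WT Col-0 libraries. In its 21 and 22 nt signal, which was 2.91% of the total, neither difference from WT Col-0 passed the test by limma (log2 difference -0.21, SE 0.42, adjusted p = 0.773 in pLAT52::RTL1 and log2 difference 0.53, SE 0.42, adjusted p = 0.551 in pMGH3::RTL1).

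With RTL1 expressed from the MGH3 promoter, 5 pseudogenes were lower and 3 higher than in WT Col-0, beside 0.958% lower and 0.475% higher of all 11585 loci tested (limma). The median log2 difference was -0.01 over the 334 pseudogenes and 0.08 over all loci. The count moved most with the scaling of the libraries. Scaling to the signal without structural RNAs shifted the median of all loci to -0.49 and gave 40 lower and 4 higher. Scaling to microRNA genes shifted it to -0.68 and gave 74 lower and 3 higher. Neither pair of pseudogene numbers has a count over all loci beside it. The count was 0 without either pMGH3::RTL1 library, 1 without either pLAT52::RTL1 library, whose residuals add to the estimate of the spread, 26 without WT Col-0 replicate 2 and 11 without WT Col-0 replicate 1.

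The clearest decrease was at AT3G30415 on chromosome 3 (12039061 to 12041042, pericentromere), the UPM1-like pseudogene shown above, with 79.3% of its signal at 23 and 24 nt. Its signal was 831 and 865 in WT Col-0, 994 and 1131 in pLAT52::RTL1, 164 and 127 in pMGH3::RTL1, 779 and 569 in WT FTL, and 73.4 and 35.8 in nrpd1a-3 FTL. The pMGH3::RTL1 libraries were below WT Col-0 and pLAT52::RTL1 without overlap, and nrpd1a-3 FTL was below WT FTL without overlap. Against WT Col-0 the fit gave log2 difference -2.55, SE 0.23, adjusted p = 0.00421, and against pLAT52::RTL1 log2 difference -2.87, SE 0.23, adjusted p = 0.0025 (limma). The call held under 16 of 18 alternatives in both. At 21 and 22 nt alone 2 pseudogenes were lower in pMGH3::RTL1 than in WT Col-0 and 1 was higher, beside 0.479% and 0.793% of all loci. AT3G30415 was lower in both lengths, with log2 difference -2.09, SE 0.44, adjusted p = 0.0159 at 21 and 22 nt and log2 difference -2.66, SE 0.23, adjusted p = 1.56e-05 at 23 and 24 nt by limma. UPM1 itself had a mean signal of 5.68, not divided by length, over the 10 libraries. UPM1 had 7.96 and 5.96 in WT Col-0, 9.83 and 9.54 in pLAT52::RTL1, and 2.65 and 2.92 in pMGH3::RTL1. It had 14.3 and 3.62 in WT FTL and 0 and 0 in nrpd1a-3 FTL. The part of shared reads in these low values was not tested.

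AT3G42724, related to an F-box gene for a subunit of ubiquitin ligases, had 142 and 121 in WT Col-0, 172 and 213 in pLAT52::RTL1, 38.2 and 47.5 in pMGH3::RTL1, 123 and 101 in WT FTL, and 20.1 and 8.04 in nrpd1a-3 FTL. AT5G66455, related to a gene for a repeat protein, had 199 and 131 in WT Col-0, 182 and 192 in pLAT52::RTL1, 60.5 and 55.02 in pMGH3::RTL1, 143 and 87.2 in WT FTL, and 17.3 and 6.48 in nrpd1a-3 FTL. In both, the pMGH3::RTL1 libraries lay under all WT Col-0, pLAT52::RTL1 and WT FTL libraries, and nrpd1a-3 FTL lay lowest. The fits against WT Col-0 gave log2 difference -1.60, SE 0.24, adjusted p = 0.0215 and log2 difference -1.47, SE 0.26, adjusted p = 0.0376 (limma). Decreases also passed at AT3G10282, related to TRICHOME BIREFRINGENCE-LIKE 14, and at AT2G46730, related to a galacturonosyltransferase-like gene of cell wall synthesis. AT3G10282 had 22.4 and 17.9 in WT Col-0, 32.8 and 29.6 in pLAT52::RTL1, 1.59 and 2.92 in pMGH3::RTL1, 21.4 and 6.63 in WT FTL, and 2.01 and 0 in nrpd1a-3 FTL. AT2G46730 had 29.3 and 21.7 in WT Col-0, 41.1 and 33.4 in pLAT52::RTL1, 5.84 and 5.84 in pMGH3::RTL1, 23.02 and 7.83 in WT FTL, and 2.01 and 0 in nrpd1a-3 FTL. Their values of 0 are in a library in which 1 read is worth 0.670. The fits gave log2 difference -2.72, SE 0.39, adjusted p = 0.0199 and log2 difference -1.94, SE 0.31, adjusted p = 0.0265 against WT Col-0 (limma).

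The pseudogenes that rose were AT3G32990, AT4G21370 and AT2G25015. AT4G21370, the receptor kinase pseudogene with the hairpin, was 69.2% 21 and 22 nt. Its signal was 817 and 779 in WT Col-0, 1023 and 1053 in pLAT52::RTL1, 2996 and 1874 in pMGH3::RTL1, 819.8 and 586 in WT FTL, and 1191 and 334 in nrpd1a-3 FTL. Both pMGH3::RTL1 libraries were above the other 8, with log2 difference 1.57, SE 0.28, adjusted p = 0.0435 (limma), and the call held under 7 of 18 alternatives. Its 23 and 24 nt signal rose too (log2 difference 1.64, SE 0.27, adjusted p = 0.00281, limma). The intact relative AT4G21380, a receptor kinase gene, had a mean signal of 85.0 over the 10 libraries. AT4G21380 had 55.5 and 67.8 in WT Col-0, 74.9 and 82.1 in pLAT52::RTL1, and 214 and 111 in pMGH3::RTL1. The part of reads shared with the pseudogene in these values was not tested.

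AT2G25015, related to a plant mobile domain gene, had 58.7 and 60.2 in WT Col-0, 53.7 and 44.3 in pLAT52::RTL1, 146 and 131 in pMGH3::RTL1, 83.7 and 12.7 in WT FTL, and 50.3 and 12.4 in nrpd1a-3 FTL. Against WT Col-0 the fit gave log2 difference 1.21, SE 0.23, adjusted p = 0.0483 by limma, a call that held under 3 of 18 alternatives. It overlaps the microRNA gene MIR836 (AT2G25011) on the opposite strand, whose own signal was 41.3 and 63.4 in WT Col-0, 35.02 and 26.2 in pLAT52::RTL1, and 122 and 108 in pMGH3::RTL1. The part of MIR836 in the values of AT2G25015 was not tested. AT3G30110, with miR8183 inside it, was 95.7% 21 and 22 nt. Its signal was 369 and 590.4 in WT Col-0, 672 and 675 in pLAT52::RTL1, 775 and 893 in pMGH3::RTL1, 524 and 573 in WT FTL, and 623 and 491 in nrpd1a-3 FTL. It passed the test in no comparison at 18 to 30 nt (limma).

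**Figure D3:**
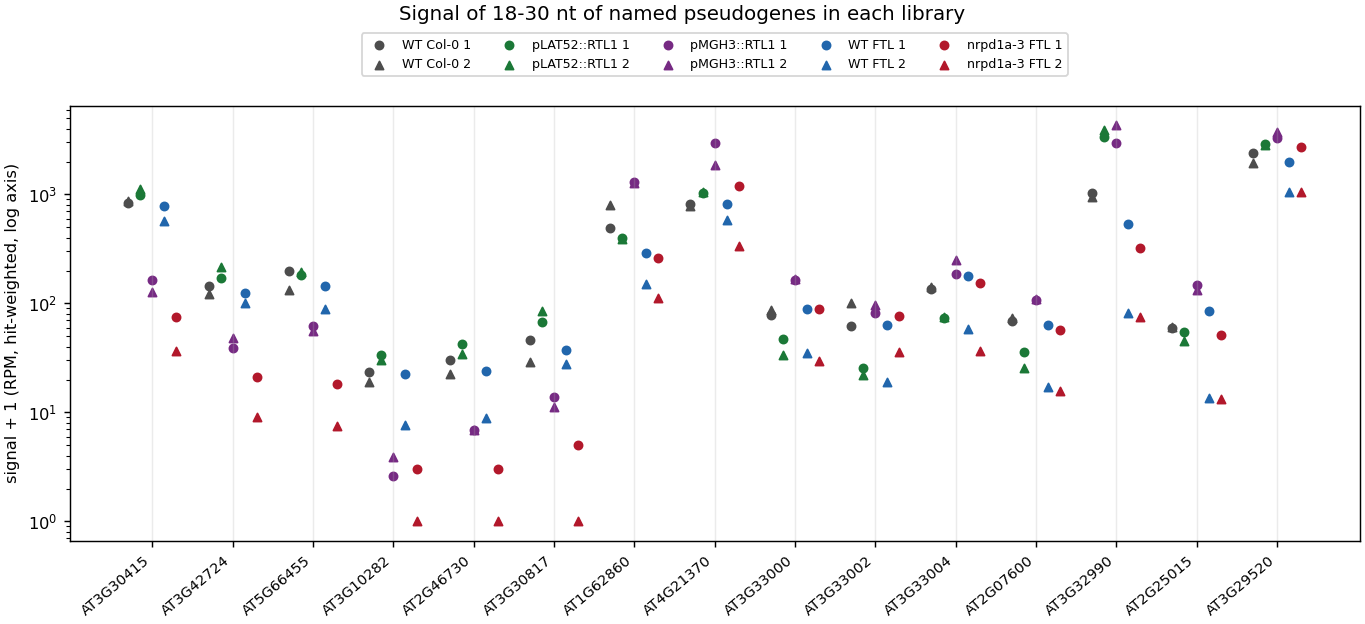
Signal of 18 to 30 nt plus 1 (y axis, hit-weighted RPM, log axis) of 15 named pseudogenes (x axis) in each of the 10 libraries, with circles for replicate 1 and triangles for replicate 2. AT3G30415, AT3G42724, AT5G66455 and AT3G30817 were lowest in pMGH3::RTL1 among unsorted and in nrpd1a-3 FTL among sorted libraries, whereas AT1G62860 and the plastid-like AT3G33000, AT3G33002, AT3G33004 and AT2G07600 had no such drop in nrpd1a-3 FTL.

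Set directly against pLAT52::RTL1, pMGH3::RTL1 was lower at 8 pseudogenes and higher at 6, beside 2.49% and 1.05% of all loci (limma). Scaling to the signal without structural RNAs gave 26 lower and 8 higher, and scaling to microRNA genes 35 lower and 5 higher, with no count over all loci beside them. Without pLAT52::RTL1 replicate 2 or pMGH3::RTL1 replicate 2 the count was 0. It was 5 without pLAT52::RTL1 replicate 1, 7 without pMGH3::RTL1 replicate 1, and 26 or 27 without WT Col-0 replicate 1 or 2. The lower ones included the 5 that were lower than WT Col-0 and AT3G30817, related to a lysyl-tRNA synthetase gene. AT3G30817 had 45.2 and 28.2 in WT Col-0, 67.03 and 84.9 in pLAT52::RTL1, 12.7 and 10.2 in pMGH3::RTL1, 36.03 and 26.5 in WT FTL, and 4.03 and 0 in nrpd1a-3 FTL (log2 difference -2.62, SE 0.31, adjusted p = 0.00423, limma). The 6 higher ones were the 3 full members of the chromosome 3 row after AT3G32990, AT2G07600, AT2G25015 and AT1G62860.

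AT1G62860, the pentatricopeptide repeat pseudogene shown above, produced siRNAs of which 83.7% were 21 and 22 nt and 0.383% were 23 and 24 nt. Its signal was 493 and 806 in WT Col-0, 399 and 385 in pLAT52::RTL1, 1304 and 1261 in pMGH3::RTL1, 291 and 150.4 in WT FTL, and 258 and 110.2 in nrpd1a-3 FTL. The pMGH3::RTL1 libraries stood above all others, and the difference to pLAT52::RTL1 passed the test (log2 difference 1.71, SE 0.28, adjusted p = 0.0163, limma), while that to WT Col-0 did not (log2 difference 1.02, SE 0.28, adjusted p = 0.098). Its relative AT1G63230 had a mean signal of 161, of which 147 was 21 and 22 nt. AT1G63230 had 151 and 238 in WT Col-0, 84.2 and 20.3 in pLAT52::RTL1, and 369 and 345 in pMGH3::RTL1, the same order of groups. The part of shared reads in this was not tested. The 3 plastid-like pseudogenes of the row gave log2 difference 2.08, SE 0.25, adjusted p = 0.00424 for AT3G33000, log2 difference 1.91, SE 0.30, adjusted p = 0.0131 for AT3G33002 and log2 difference 1.53, SE 0.23, adjusted p = 0.011 for AT3G33004 (limma). AT2G07600 gave log2 difference 1.84, SE 0.25, adjusted p = 0.00655 (limma).

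Between the RTL1 groups the 2 length classes differed in opposite directions, at pseudogenes and at all loci alike. At 21 and 22 nt, 20 of 151 pseudogenes passed the test with more signal in pMGH3::RTL1 than with pLAT52::RTL1 and 1, AT3G30415, with less, beside 10.2% and 1.7% of all 5425 loci. The median log2 difference was 0.75 at pseudogenes and 0.65 at all loci. Both pMGH3::RTL1 libraries were above both pLAT52::RTL1 libraries at 107 of the 151 (70.9%), beside 62.8% of all loci. At 23 and 24 nt, 20 of 278 pseudogenes were lower and 2 higher, beside 11.5% and 1.2% of all 7262 loci, with medians of -0.26 and -0.29. Against WT Col-0 at 23 and 24 nt, pMGH3::RTL1 was lower at 13 and higher at 10, beside 3.32% and 1.34%. There pLAT52::RTL1 was higher at 5 and lower at 0, beside 3.48% and 0.179%. At an unadjusted p below 0.05 (limma), 8 of the 278 were lower and 38 higher, with no count over all loci beside them. The median log2 difference was 0.22 at pseudogenes and 0.22 at all loci.

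Sorted pollen addresses what the Pol IV of the pollen grain itself contributes. There, 42 of 182 pseudogenes tested were lower in nrpd1a-3 FTL than in WT FTL and 0 were higher, beside 21.8% lower and 0.0678% higher of all 7380 loci (limma). At an unadjusted p below 0.05 (limma) there were 87 lower and 1 higher, with no count over all loci beside them. The methods describe both kinds of grain as sorted at the same time from heterozygous F1 plants, but no source says that a replicate number marks 1 sort. With the replicate number as a block, limma gave 114 lower and 2 higher, beside 3544 lower and 684 higher of all loci. Their share of 23.1% lay between that of transposable element genes, 50.2% of 2711, and that of protein-coding genes, 5.57% of 3629. 41 of the 42 were among the 161 tested pseudogenes that are not organelle-like. The median log2 difference was -1.81 over the 161, 0.08 over the 21 organelle-like and -0.97 over all loci. The 42 had log2 differences from -3.99 to -1.81, and their adjusted p was 0.0442 or above, close to the threshold.

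The count leaned on single libraries and on the scale. It was 0 without WT FTL replicate 1 and without WT FTL replicate 2, 13 without nrpd1a-3 FTL replicate 2 and 108 without nrpd1a-3 FTL replicate 1. It was also 0 when the libraries were scaled by the median ratio over loci, which moved the median of all loci from -0.97 to 0.17, and with a pseudocount of 0.1. Without any threshold, both nrpd1a-3 FTL libraries were below both WT FTL libraries at 115 of the 161 (71.4%), beside 50.7% of all loci, and above both at 5 (3.11%), beside 17% of all loci. At 23 and 24 nt alone both were below at 93 of 112 (83%), beside 64.8% of all loci. The median log2 difference of these 112 was -2.10, beside -1.82 over all loci. At this length none passed the adjusted threshold by limma, beside 0% of all loci. An unadjusted p below 0.05 (limma) was found at 66 of the 129 pseudogenes tested, with no count over all loci beside it. At 21 and 22 nt, 0 of 70 pseudogenes passed by limma, beside 0% of all loci. At an unadjusted p below 0.05 (limma), 15 were lower and 0 higher, with no count over all loci beside them. Both nrpd1a-3 FTL libraries were below both WT FTL libraries at 26 of the 54 that are not organelle-like (48.1%), beside 28.7% of all loci. They were above both at 0 of the 54, beside 22.7% of all loci. The median log2 difference of the 54 was -0.77, beside 0.007 over all loci.

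Among the largest decreases was AT3G13624, related to an F-box gene, with 64.5 and 57.5 in WT Col-0, 64.00 and 45.8 in pLAT52::RTL1, 66.8 and 64.3 in pMGH3::RTL1, 28.02 and 33.7 in WT FTL, and 3.02 and 0 in nrpd1a-3 FTL. AT4G13442, related to a gene of the reverse transcriptase family, had 70.6 and 67.2 in WT Col-0, 60.98 and 89.6 in pLAT52::RTL1, 96.6 and 77.4 in pMGH3::RTL1, 35.4 and 27.7 in WT FTL, and 3.02 and 0.67 in nrpd1a-3 FTL. In both pseudogenes pLAT52::RTL1 overlapped WT Col-0, and the nrpd1a-3 FTL libraries were lowest. The fits gave log2 difference -3.99, SE 1.02, adjusted p = 0.0442 and log2 difference -3.64, SE 0.87, adjusted p = 0.0442 (limma). AT3G30817, AT3G30415 and AT5G66455, described above for pMGH3::RTL1, gave log2 difference -3.83, SE 1.02, adjusted p = 0.0442, log2 difference -3.67, SE 0.67, adjusted p = 0.0442, and log2 difference -3.27, SE 0.66, adjusted p = 0.0442 (limma). Of the 5 pseudogenes lower in pMGH3::RTL1 than in WT Col-0, 3 could be tested in sorted pollen and all 3 were among the 42 (60% of the 5 and 7.14% of the 42). Beside this, 21.8% of all 7380 loci tested in sorted pollen were lower there. Over the 42, the median log2 difference in pMGH3::RTL1 against WT Col-0 was -0.05, with 27 below 0. The comparisons share no library, but the same overlap over all loci was not tested.

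AT5G32690, at 58519 bp the longest member, spans transposable element genes on chromosome 5 (12332283 to 12390801), and 57.7% of its 24-mers occur in transposable element genes. Its signal was 2512 and 2289 in WT Col-0, 2069 and 1754 in pLAT52::RTL1, 2131 and 2096 in pMGH3::RTL1, 1669 and 985 in WT FTL, and 379.5 and 148 in nrpd1a-3 FTL, a mean of 27.4 per kb. It was lower in nrpd1a-3 FTL than in WT FTL (log2 difference -2.43, SE 0.77, adjusted p = 0.0491, limma). AT3G29520, the highest in signal of the pseudogenes that are not organelle-like, is 474 bp long and had 5035 per kb, 60.3% of it at 24 nt. Its signal was 2413 and 1949.5 in WT Col-0, 2888 and 2825 in pLAT52::RTL1, 3287 and 3708 in pMGH3::RTL1, 1992 and 1042 in WT FTL, and 2719 and 1042 in nrpd1a-3 FTL. Here WT FTL and nrpd1a-3 FTL overlapped, with log2 difference 0.22, SE 0.84, adjusted p = 0.879 (limma), and 69.2% of the signal was 23 and 24 nt.

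10 pseudogenes on chromosomes 2, 4 and 5 had AT5G32590, a gene for a myosin heavy chain-like protein, as their closest relative, and were looked at together after their values were seen. All 10 reached 12 reads, their signal was 70.1% 23 and 24 nt in sum, and 9 of the 10 were lower in nrpd1a-3 FTL, with a median log2 difference of -2.30, beside 21.8% and -0.97 over all loci. AT2G13410 had 268 and 293 in WT Col-0, 204 and 178 in pLAT52::RTL1, 309.6 and 300.3 in pMGH3::RTL1, 167 and 180.1 in WT FTL, and 27.7 and 25.02 in nrpd1a-3 FTL. AT5G33310 had 277 and 322 in WT Col-0, 185 and 172 in pLAT52::RTL1, 300.3 and 296 in pMGH3::RTL1, 148 and 163 in WT FTL, and 34.5 and 24.97 in nrpd1a-3 FTL. In both of these the pLAT52::RTL1 libraries were below WT Col-0 and pMGH3::RTL1 without overlap. The median of the 10 in pLAT52::RTL1 against WT Col-0 was -0.55, beside 0.17 over all loci, and none passed the test at 18 to 30 nt. They share sequence with each other, so they are not 10 independent loci.

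Length went along with the difference between the sorted groups, at pseudogenes and at all loci alike. Of the pseudogenes that are not organelle-like and had 12 reads, those with more 23 and 24 nt than 21 and 22 nt signal had a median log2 difference of -1.98 and 41 of 135 were lower in nrpd1a-3 FTL. Over all loci of that kind the median was -1.93 and 31.8% of 5055 were lower. Pseudogenes with more 21 and 22 nt had a median of -0.13 and 0 of 24 were lower, beside a median of 0.28 and 0% of 2325 over all such loci. With the majority length taken from WT Col-0 alone, which the comparison does not use, the medians were -1.98 (41 of 135 lower) and -0.28 (0 of 26 lower), beside -1.97 and 0.33 over all loci. In pMGH3::RTL1 against WT Col-0 the medians were -0.04 for the first kind and 0.70 for the second, beside -0.07 and 0.57 over all loci. In pLAT52::RTL1 they were 0.09 and -0.07, beside 0.10 and 0.32. No gap between the kinds was tested, because members share sequence and a test over members is not a test over samples. The 58 pericentromeric pseudogenes had a median of -2.19 in nrpd1a-3 FTL with 26 lower, and the 103 on the arms one of -1.58 with 15 lower.

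**Figure D4:**
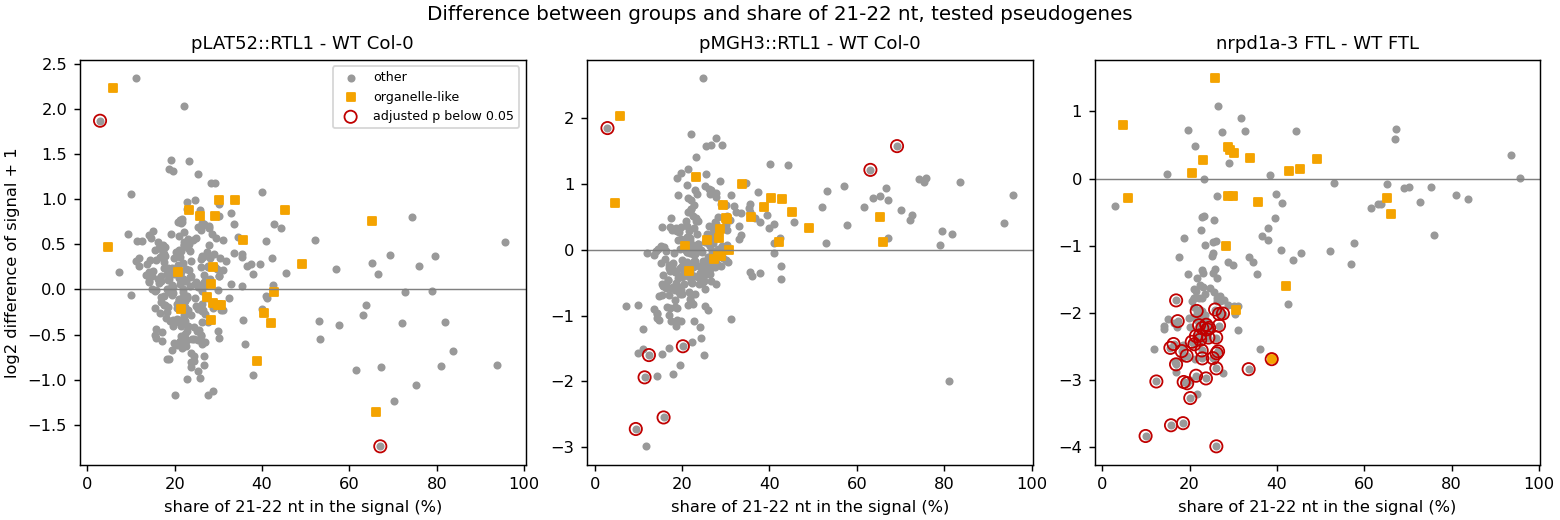
Log2 difference of signal plus 1 between groups (y axis) against the share of 21 and 22 nt in the signal over the 10 libraries (x axis, %) for each tested pseudogene, with squares for organelle-like ones and red rings for an adjusted p below 0.05. In nrpd1a-3 FTL against WT FTL the ringed pseudogenes other than AT2G07808 had shares of at most 33.5% at 21 and 22 nt, and pseudogenes with high shares lay closer to 0, while in pMGH3::RTL1 against WT Col-0 the latter lay mostly above 0.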

How the data were processed

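Small RNA libraries of 18 to 30 nt from pollen were compared in 5 groups of 2. Single-end reads were mapped by the authors to TAIR10 with bowtie, allowing perfect matches only. The signal values they deposited, per locus and length, are reads divided by their number of genomic positions and scaled to RPM. The authors used DESeq2 for their own tests. As the values of a library add up to more than the unit allows, they are called signal; 57.3% to 65.9% were whole reads within 0.001 read, and 4296910 to 10349600 weighted reads were listed per library.

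Lengths were summed, loci with a mean of 12 weighted reads or more kept, and log2(signal + 1) fitted with limma 3.58.1 in R 4.3.3 with a variance trend, two-sided, with Benjamini-Hochberg adjustment over all loci and a threshold of 0.05. WT Col-0 and both RTL1 groups shared a fit (3 residual degrees of freedom), and sorted pollen had its own (2). The 2 comparisons against WT Col-0 share its libraries. On simulated data the first fit recovered 78% of loci changed by a log2 of 2 and 94.6% of those changed by 3. This was for pMGH3::RTL1 against WT Col-0 (10748 loci). The second fit recovered 54.8% and 82.9% for nrpd1a-3 FTL against WT FTL (6423 loci). The simulated libraries were independent, with a spread set below the fitted one before read sampling. Few loci were changed in them, up and down alike. Whether these rates hold in the real libraries, where counts moved with the scaling and with libraries left out, was not tested. Sequences and coordinates are from the RefSeq copy of TAIR10.1, 24-mers of each pseudogene were matched to the genome, relatives were found with BLAST+ 2.17.0 (blastx, E-value 1e-10), and values were handled with Python 3.11.15, pandas 2.3.3 and numpy 2.4.6 and drawn with matplotlib 3.10.9.

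Named are the 10 pseudogenes with the highest mean signal, the 5 highest at 21 and 22 nt and the 5 highest at 23 and 24 nt, the 5 largest decreases and increases that passed each comparison, and their closest relatives. The members, lists and tests were chosen with earlier results of these data known. Other scalings, pseudocounts, filters, lengths, fits and libraries left out were tried as alternatives. Lengths above 30 nt were left out of the tests.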

Additional observations from a re-analysis of the deposited data

Results flagged for a closer look

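The pseudogenes below stand out because pMGH3::RTL1 and pLAT52::RTL1, both set against WT Col-0, differed from each other in the direct test (limma, adjusted p below 0.05 over all loci). Lower in pMGH3::RTL1 were AT3G10282, with a log2 difference of -3.33, AT3G30415 with -2.87, AT3G30817 with -2.62, AT2G46730 with -2.48, AT3G42724 with -2.14 and AT5G66455 with -1.68. The same holds for AT2G13115 (-1.38) and AT2G13580 (-0.99), which are outside the rule for named pseudogenes and were chosen after their values were seen. Higher in pMGH3::RTL1 were AT3G33000 with a log2 difference of 2.08, AT3G33002 with 1.91, AT2G07600 with 1.84, AT1G62860 with 1.71, AT3G33004 with 1.53 and AT2G25015 with 1.49.

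Lengths above 30 nt were not part of any comparison, and pseudogene signal was listed there in WT FTL replicate 1 and nrpd1a-3 FTL replicate 1 only. It summed to 356 over 14 pseudogenes in the former and to 145 over 9 in the latter, with lengths up to 45 nt. The other 8 libraries listed no length above 30 nt.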

How the results depend on the processing

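Numbers of pseudogenes past the threshold are given in the order pLAT52::RTL1 against WT Col-0, pMGH3::RTL1 against WT Col-0, pMGH3::RTL1 against pLAT52::RTL1 and nrpd1a-3 FTL against WT FTL, where the report has 2, 8, 14 and 42. They were 9, 44, 34 and 85 when scaled to the signal without structural RNAs and 12, 77, 40 and 62 when scaled to microRNA genes. With the median ratio the sorted comparison had 0, and the numbers of the RTL1 comparisons are not given here. Without a variance trend the numbers were 0 in the first, 3 in the second and 0 in the sorted comparison. At 21 and 22 nt alone they were 9, 3, 21 and 0, at 23 and 24 nt alone 5, 23, 22 and 0, and with limma-voom on weighted reads 4, 16, 14 and 94. With only the 4 libraries of each RTL1 comparison they were 0, 1 and 25, and with all 10 libraries in 1 fit the sorted comparison had 165. The sorted count was 0 with a pseudocount of 0.1, 69 with 5 and 0 without the filter. Leaving out single libraries gave 0 to 7, 0 to 26, 0 to 27 and 0 to 108. The RTL1 libraries came from 2 lines of each construct, but no source says whether same-numbered libraries of different groups were handled together. Deviations of same-numbered libraries correlated at 0.08, 0.09 and 0.01 in unsorted and 0.47 in sorted pollen, and the fit with a replicate block gave 2, 6, 14 and 116. Without organelle-like pseudogenes, an alternative chosen after seeing the data, the counts were 2, 8, 14 and 41. The causes of these shifts were not tested, and the numbers are not set beside those over all loci here.

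Of 8 sums over all pseudogenes (2 length classes in 4 comparisons), 4 did not overlap between groups, against 1 after either scaling to the signal without structural RNAs or to microRNA genes. With the median ratio the same 4 did not overlap, and neither did the 21 and 22 nt sum of nrpd1a-3 FTL against WT FTL. Of 495 recomputed values of named differences that had passed, 176 no longer passed and 1 changed sign, AT3G32990 in pLAT52::RTL1 at 21 and 22 nt alone (-0.21). Of 1131 recomputed values of those that had not, 33 passed and 123 changed sign. With 2 libraries per group and 1 read worth 0.430 to 1.46, weak pseudogenes stayed under the filter.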

Other observations

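Of the pseudogenes that fell in pMGH3::RTL1, AT3G30415 had 779 and 569 in WT FTL against 831 and 865 in WT Col-0. AT3G10282 had 21.4 and 6.63 against 22.4 and 17.9, so that WT FTL replicate 2 was below both WT Col-0 libraries. AT3G32990, with its 23-nt signal, had 529 and 80.2 in WT FTL against 1034 and 953 in WT Col-0. Sorting, the DsRed insertion, the parent heterozygous for nrpd1a-3 and the handling all differ between these groups, and their parts cannot be told apart.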
